A study of Saccharomyces cerevisiae with 42 samples.

Results

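The response of the yeast strain hog1del to 60 min of hyperosmotic shock was taken from 14 of the 42 arrays of the series, 7 of cells in 1 M sorbitol for 60 min and 7 of cells at 0 min. These arrays were chosen by their labels alone, as all arrays of the strain without the gene HOG1. They form 3 biological replicates per time, with 3 technical arrays per time in replicate 1 and 2 per time in the other replicates. The other arrays of Saccharomyces cerevisiae hold 2 further strains at the same times, with 3 biological replicates each. HOG1-GFP carries a Hog1 protein with a GFP tag, and HOG1-CCAAX carries Hog1 with a CCAAX ending, a signal that attaches proteins to membranes. All groups were kept at 25 °C, and the labels name neither the parent strain, the mating type nor the marker that replaced HOG1. Every sample was labelled with Cy3 and hybridised against a common reference pool in Cy5, so that a level below is the log2 ratio of sample over pool.

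Hog1 is the MAP kinase at the end of the high-osmolarity glycerol (HOG) pathway, in which the sensor branches of Sln1 and of Sho1 activate the kinase Pbs2, which phosphorylates Hog1. Active Hog1 raises glycerol synthesis and retention and acts on transcription factors such as Sko1, Hot1, Msn2 and Msn4. The Sho1 branch shares the kinases Ste20 and Ste11 with the pathways of mating and of filamentous growth, and cells without Hog1 are known for mating gene expression under osmotic stress. The design of the series lets the response be asked for in the absence of the kinase.

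HOG1 (YLR113W) served as the check of the labels. Its level in hog1del was −3.97, −3.49 and −3.64 at 60 min, against −3.03, −3.20 and −3.47 at 0 min. In HOG1-GFP the HOG1 levels were 0.46, 0.21 and 0.34 at 60 min and −0.08, −0.06 and −0.10 at 0 min, and in HOG1-CCAAX they averaged 0.34 ± 0.27 at 60 min and −0.26 ± 0.10 at 0 min (SD, n = 3). Every hog1del column lay below every column of the other strains, as the labels say. The signal left in hog1del is that of a probe for an absent gene, and its change of −0.46 ± 0.41 did not pass (adjusted p = 0.056, or adjusted p = 0.026 with the replicate number as a block across strains). The block leaves replicate variation that the strains share out of the error. The strains also differ in signals other than that of HOG1. The probe for the drug marker KANMX4, measured in replicates 2 and 3 only, averaged −4.92 in hog1del at 60 min against 0.93 in HOG1-GFP and −4.96 in HOG1-CCAAX. The GFP probe, in the same replicates and at 60 min, averaged −5.34 in hog1del, against 0.71 in HOG1-GFP and 0.44 in HOG1-CCAAX, so that signal for GFP was present in both other strains. URA1, of pyrimidine synthesis, averaged −2.29 in hog1del at 0 min against −0.26 in HOG1-GFP and −0.25 in HOG1-CCAAX. In any comparison between strains, the loss of HOG1 and these other differences cannot be told apart.

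Replicate 1 stood apart from the other replicates. Across the 5443 genes tested, the fold changes in hog1del had a Pearson correlation of 0.71 between replicates 1 and 2, 0.72 between replicates 1 and 3, and 0.95 between replicates 2 and 3. In replicate 1 the technical arrays of hog1del correlated at 0.59 to 0.93 at 60 min and 0.67 to 0.95 at 0 min, against 0.97 to 0.98 in the later replicates. Genes measured on 1 array are not independent of each other, and the number of arrays limits the precision. No sample was kept for 60 min without sorbitol, so time and handling cannot be told apart from the shock.

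In hog1del, 1391 genes rose (25.6% of those tested) and 1489 fell (27.4%) at 60 min, at an adjusted p under 0.05 with limma after Benjamini-Hochberg adjustment. With a minimum of 2-fold, 618 rose (11.4%) and 604 fell (11.1%). Levels at the 2 times did not overlap in 1380 genes that were higher (25.4%) and 1359 that were lower (25.0%). Without replicate 1 the counts were 1961 higher (36.0%) and 2022 lower (37.1%), without replicate 2 they were 715 (13.1%) and 620 (11.4%), and without replicate 3 they were 611 (11.2%) and 583 (10.7%). With the replicate number as a block across strains they were 1867 (34.3%) and 1933 (35.5%). That block takes variation between replicates that the strains share out of the error. Calls of the hog1del response with the block thus leave out part of its replicate spread. The median log2 fold change over all genes tested was −0.01. In HOG1-GFP 1309 genes rose (24.0%) and 1236 fell (22.7%), and in HOG1-CCAAX 1528 rose (28.1%) and 1420 fell (26.1%). Shares of a gene list that changed are to be read against these percentages. The lists were drawn up with earlier results of these data known, so an excess over all genes is not independent of these data. Counts of responses that differ from HOG1-GFP are to be read against 1.64% higher and 0.937% lower over all genes. With the block those shares were 7.28% and 7.5%. For this difference limma called 0 higher and 2 lower genes without replicate 2, and none without replicate 3. In parentheses after the counts of a list stand its counts with replicates 1, 2 and 3 left out in turn (leave-one-out) and with that block.

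**Figure D1:**
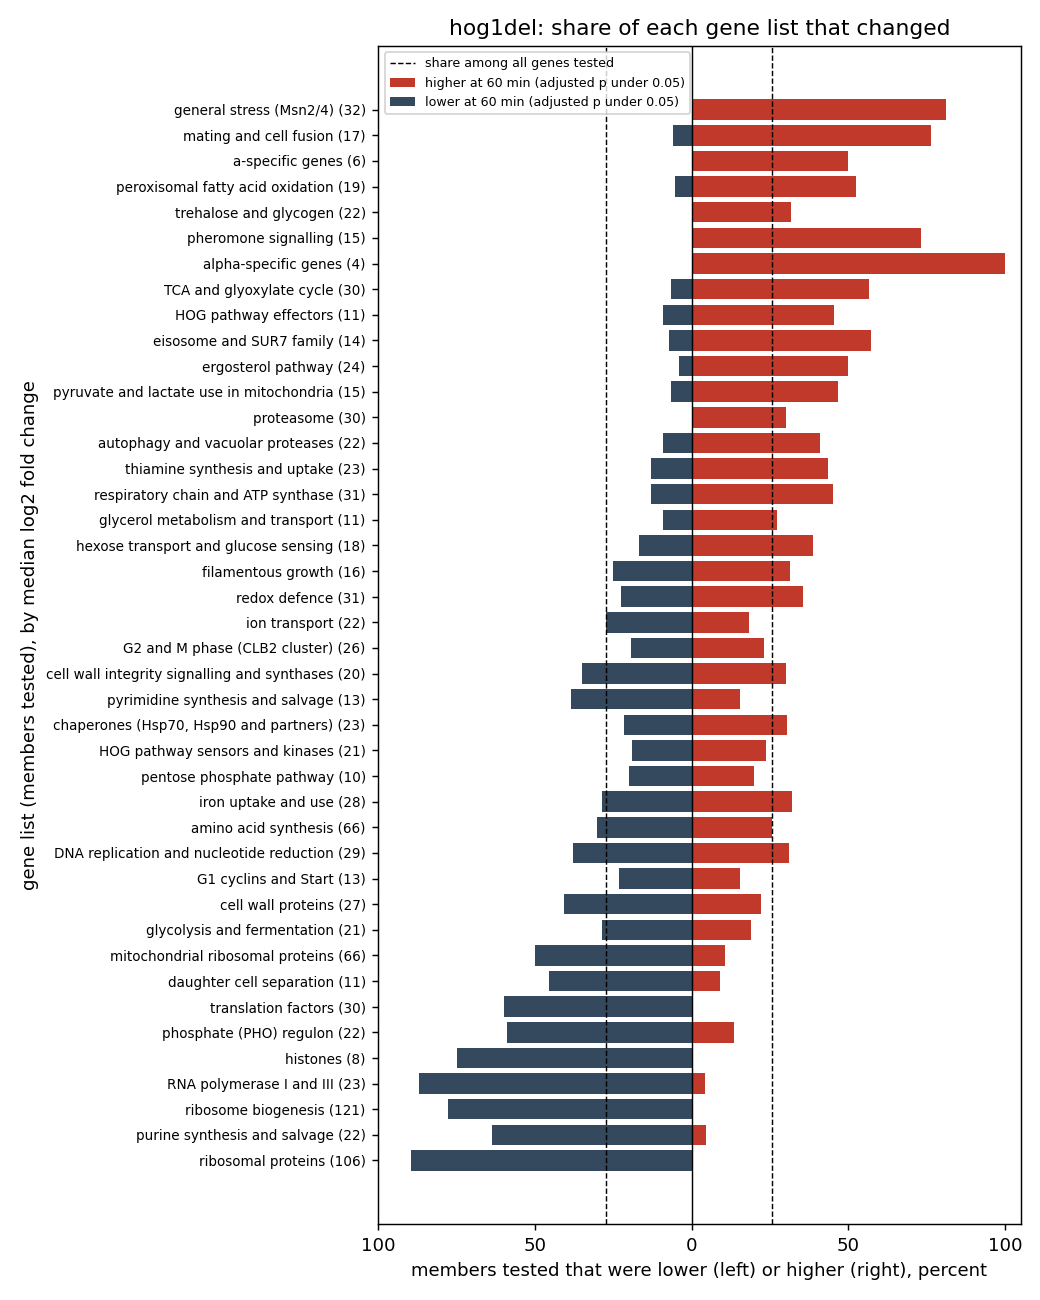
Percent of the tested members of each gene list that were lower (left) or higher (right) at 60 min in hog1del at an adjusted p under 0.05, with lists ordered by their median log2 fold change. Dashed lines mark the 27.4% lower and 25.6% higher among all genes tested, and the 10 lists without a bar on a side had no member called there.

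The genes that rose most in hog1del include several of mitochondrial carbon use. CYB2 (YML054C), the cytochrome b2 that oxidises lactate in mitochondria, stood at 0.55, 1.07 and 1.04 at 60 min, against −3.40, −3.56 and −3.20 at 0 min (log2 levels of replicates 1, 2 and 3). All 60 min values lay far above all 0 min values, and the gene rose 19.4-fold (4.27 ± 0.35 log2, SD, n = 3, adjusted p = 2.9e-06). In HOG1-GFP CYB2 changed by 4.39 ± 0.26 and in HOG1-CCAAX by 4.63 ± 0.51. SUE1 (YPR151C), needed for the breakdown of unstable cytochrome c, had levels of 0.73, 1.21 and 1.09 at 60 min and −2.66, −3.60 and −3.43 at 0 min. It rose 18.9-fold (4.24 ± 0.75, adjusted p = 7.7e-06), again without overlap. CYC7 (YEL039C), the isoform of cytochrome c made when oxygen or glucose is short, stood at 1.00, 0.22 and 0.26 against −2.03, −3.45 and −3.43 and rose by 3.46 ± 0.37 (adjusted p = 7.7e-06). In CYC7 replicate 1 was the highest at both times, so that the change within each replicate was close. MPC3 (YGR243W), a subunit of the mitochondrial pyruvate carrier, changed by 3.23, 4.35 and 3.90 in the 3 replicates of hog1del, against 6.17, 5.30 and 5.76 in those of HOG1-GFP. The hog1del values all lay below the HOG1-GFP values, and the responses differed by −1.92 ± 1.00 (adjusted p = 0.032). For this and later differences the SD is of the differences within replicates, whereas the p is of the unpaired contrast of strain means.

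**Figure D2:**
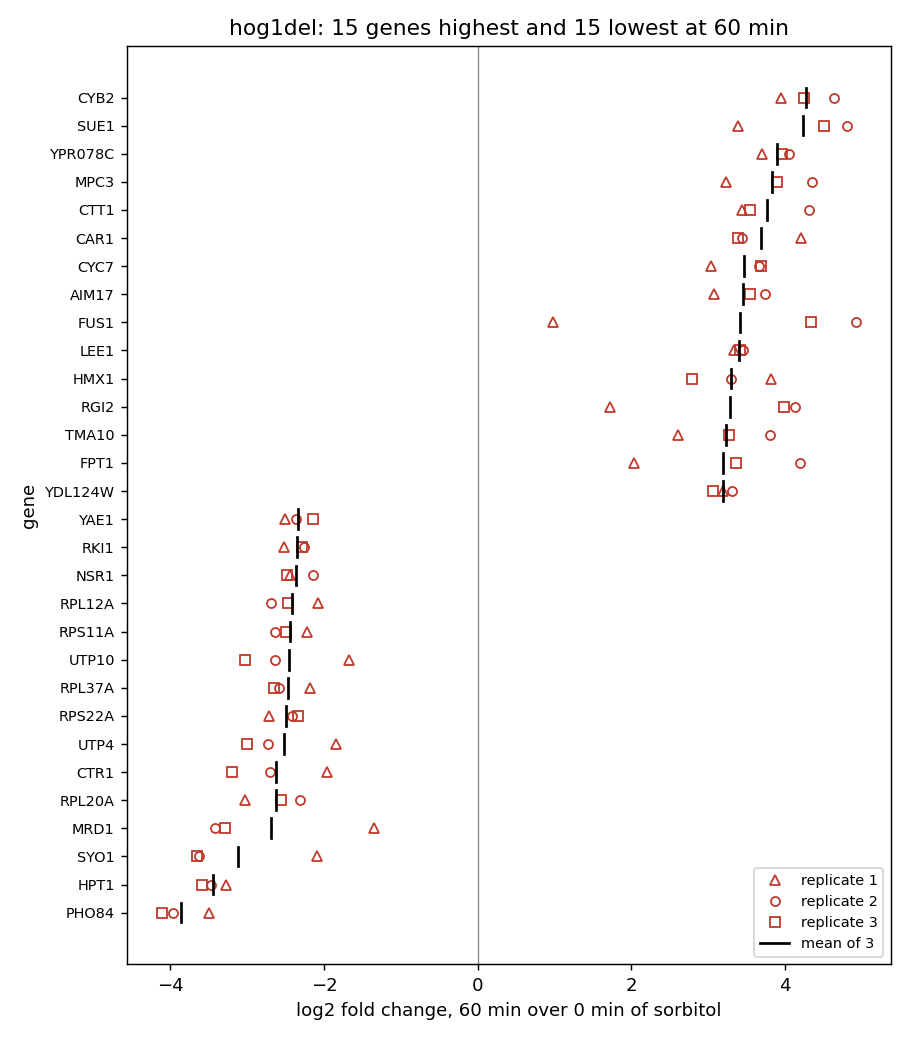
Log2 fold change of 60 min over 0 min of sorbitol in hog1del for the 15 genes that rose most and the 15 that fell most, with 1 symbol per biological replicate and a bar at the mean. CYB2 heads the rises at a mean of 4.27 and PHO84 the falls at −3.86, and the replicates of FUS1 spread most, with 0.97 in replicate 1.

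CAR1 (YPL111W), the arginase, stood at 1.38, 0.83 and 0.57 at 60 min, against −2.83, −2.61 and −2.83 at 0 min, and rose 12.8-fold (3.68 ± 0.46, adjusted p = 7.7e-06), against a change of 2.71 ± 0.52 in HOG1-GFP. The CAR1 difference between these strains did not pass. GAL2 (YLR081W), the galactose permease, stood at 0.41, 0.61 and 1.01 against −1.93, −2.77 and −2.45 and rose by 3.06 ± 0.62 (adjusted p = 3.8e-05). In both genes the lowest value at 60 min lay more than 2 log2 units above the highest value at 0 min. CAR2, the next enzyme of arginine breakdown, and GAL7, of galactose use, were singled out after their values were seen. CAR2 rose by 2.81 ± 0.82 (adjusted p = 7.1e-05) and GAL7 by 2.73 ± 0.84 (adjusted p = 1.4e-04) in hog1del. Their changes in HOG1-GFP were 2.33 ± 0.58 for CAR2 and 2.41 ± 0.45 for GAL7, and neither difference between the strains passed (adjusted p = 0.62 for CAR2 and adjusted p = 0.8 for GAL7).

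HMX1 (YLR205C), the heme oxygenase, rose by 3.30 ± 0.51 in hog1del (adjusted p = 2.2e-04). RGI2, of respiratory growth, rose by 3.28 ± 1.35 (adjusted p = 4.8e-04), with 1.73, 4.13 and 3.99 in replicates 1, 2 and 3. YDL124W, an alpha-keto amide reductase, rose by 3.19 ± 0.12 (adjusted p = 2.8e-06), with close values of 3.19, 3.31 and 3.07 in the replicates. The remaining genes among the 15 highest were YPR078C, AIM17, LEE1, TMA10 and FPT1, besides CTT1 and FUS1 below, with means between 3.20 (FPT1) and 3.90 (YPR078C).

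Genes of the tricarboxylic acid and glyoxylate cycles, which oxidise acetyl units or save their carbon, rose in 17 of 30 cases and fell in 2 in hog1del (leave-one-out 22, 9 and 5 higher and 3, 1 and 1 lower, block 23 higher and 3 lower), with a median of 0.74 against 0.46 in HOG1-GFP. IDP2 (YLR174W), the cytosolic isocitrate dehydrogenase, stood at 0.85, 0.70 and 0.90 at 60 min, against −1.60, −1.63 and −1.50 at 0 min, and rose by 2.39 ± 0.057 (adjusted p = 7.7e-06). MDH2, the cytosolic malate dehydrogenase, rose by 2.20 ± 0.21 (adjusted p = 9.4e-06). CIT2, the peroxisomal citrate synthase, rose by 2.01, 2.32 and 2.07 in the replicates of hog1del, against 1.29, 0.77 and 0.46 in those of HOG1-GFP. The CIT2 responses did not overlap and differed by 1.30 ± 0.50 (adjusted p = 0.021).

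Of 19 genes of peroxisomal fatty acid oxidation 10 rose and 1 fell (leave-one-out 15, 5 and 5 higher and 2, 1 and 1 lower, block 13 higher and 2 lower), with a median of 0.85 in hog1del and 0.81 in HOG1-GFP. POT1 (YIL160C), the thiolase that ends each round of oxidation, had levels of 0.65, 0.57 and 0.65 at 60 min and −1.11, −2.40 and −2.32 at 0 min and rose by 2.56 ± 0.70 (adjusted p = 1.4e-04). No POT1 value at 60 min overlapped those at 0 min. In the respiratory chain and ATP synthase 14 of 31 genes rose and 4 fell (leave-one-out 17, 7 and 6 higher and 5, 2 and 2 lower, block 15 higher and 8 lower), with a median of 0.27. QCR6, a subunit of complex III, rose by 1.31 ± 0.41 (adjusted p = 4.3e-04). Those that fell were COX9 at −1.49 ± 0.70 (adjusted p = 0.001), ATP20 at −1.47 ± 0.62 (adjusted p = 0.0028), COX4 and NDE1, of which the last 2 named did not pass without replicate 2 or without replicate 3. HAP4, the activating subunit of the factor for respiratory genes, changed by 0.10 ± 0.18 in hog1del, against −1.64 ± 0.68 in HOG1-GFP and 0.15 ± 0.44 in HOG1-CCAAX. Of its change in hog1del and the differences of hog1del to the other strains, only that to HOG1-GFP passed (1.74, adjusted p = 0.032).

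Of 15 genes for pyruvate and lactate use in mitochondria 7 rose and 1 fell (leave-one-out 11, 5 and 4 higher and 1, 0 and 0 lower, block 11 higher and 1 lower). They include ALD4, the mitochondrial aldehyde dehydrogenase, at 2.79 ± 0.32 (adjusted p = 7.7e-06), and ALD6, its cytosolic counterpart, at 2.41 ± 0.74 (adjusted p = 7.7e-04). Glycolysis and fermentation genes moved both ways, with 4 of 21 higher and 6 lower (leave-one-out 6, 3 and 3 higher and 9, 2 and 1 lower, block 6 higher and 8 lower). The hexokinase genes split, HXK1 at 1.76 ± 0.82 (adjusted p = 0.0012) and HXK2 at −0.55 ± 0.06 (adjusted p = 0.019, but 0.16 without replicate 2 and 0.14 without replicate 3). ADH3, the mitochondrial alcohol dehydrogenase, fell by 1.47 ± 0.36 (adjusted p = 0.0023). Among hexose transporters and glucose sensing genes 7 of 18 rose and 3 fell (leave-one-out 7, 5 and 4 higher and 3, 0 and 0 lower, block 8 higher and 4 lower). MIG1, the glucose repressor, rose by 1.17 ± 0.22 (adjusted p = 1.2e-04).

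The general stress genes, many of them targets of Msn2 and Msn4, rose in 26 of 32 cases in hog1del and none fell (leave-one-out 29, 20 and 18 higher, block 29 higher and 0 lower). Their median was 1.74 in hog1del, 2.61 in HOG1-GFP and 2.51 in HOG1-CCAAX, against −0.01, −0.01 and 0.03 over all genes. CTT1 (YGR088W), the cytosolic catalase, stood at 0.083, 0.98 and 0.52 at 60 min, against −3.36, −3.34 and −3.03 at 0 min, and rose 13.6-fold (3.77 ± 0.48, adjusted p = 1.3e-05) without overlap of the times. TMA10, a ribosome-associated protein, rose by 3.23 ± 0.60 (adjusted p = 1.7e-05). GAD1, the glutamate decarboxylase, rose by 2.62 ± 0.29 in hog1del (adjusted p = 5.4e-04) and 2.54 ± 0.62 in HOG1-GFP.

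Against HOG1-GFP, 8 of the 32 general stress responses were lower in hog1del and none was higher, beside 0.937% lower and 1.64% higher over all genes. These 8 were MPC3, TKL2, ALD3, NQM1, GRE3, SIP18, GRE1 and PAI3. The authors had chosen TKL2, ALD3, GRE3, SIP18, GRE1 and PAI3 on these same arrays as less induced in hog1del. With the list drawn up after earlier results were known, the gap to the share of all genes may be partly fixed by choice. GRE3 (YHR104W), an aldose reductase, changed by −1.16, 0.30 and −0.081 in hog1del, against 2.09, 2.61 and 2.63 in HOG1-GFP, a difference of −2.75 ± 0.47 (adjusted p = 0.027). TKL2, a transketolase of the pentose phosphate pathway, changed by −0.64, 0.53 and 0.37 in hog1del, against 3.32, 5.04 and 5.60 in HOG1-GFP, a difference of −4.57 ± 0.64 (adjusted p = 0.014). In these genes replicate 1 of hog1del was the lowest, and all hog1del values lay below all HOG1-GFP values. ALD3, an aldehyde dehydrogenase, rose by 1.37 ± 0.28 in hog1del (adjusted p = 0.013, but 0.085 without replicate 2 and 0.098 without replicate 3), against 5.20 ± 0.84 in HOG1-GFP. With the replicate number as a block, 17 of the 32 responses were lower in hog1del and 1 was higher, beside 7.5% and 7.28% over all genes. The differences of MPC3, TKL2, ALD3, NQM1 and GRE3 passed neither without replicate 2 nor without replicate 3.

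The pentose phosphate list of 10 genes held 2 that rose, GND2 at 2.32 ± 0.71 (adjusted p = 0.002) and NQM1 at 1.86 ± 0.075 (adjusted p = 2.3e-04), and 2 that fell, RKI1 and RPE1, the epimerase (adjusted p = 0.0512 for RPE1 without replicate 2). Alternatives moved these counts (leave-one-out 3, 2 and 2 higher and 3, 1 and 2 lower, block 3 higher and 4 lower). RKI1 (YOR095C), the ribose-5-phosphate isomerase, fell by 2.36 ± 0.15 (adjusted p = 1.0e-05). YBR116C, an open reading frame next to TKL2 by its name and not in the annotation used, changed by 0.46 ± 0.95 in hog1del and 5.12 ± 0.31 in HOG1-GFP, much as TKL2 did, and the 2 signals may not be independent.

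Of 22 genes of trehalose and glycogen metabolism 7 rose and none fell (leave-one-out 17, 5 and 3 higher and 1, 0 and 0 lower, block 17 higher and 1 lower), with a median of 0.81, and the medians of replicates 1, 2 and 3 were 0.16, 0.97 and 1.13. GLC3, the glycogen branching enzyme, rose by 2.07 ± 0.60 (adjusted p = 6.1e-04). UGP1, which makes UDP-glucose, rose by 1.88 ± 0.33 (adjusted p = 5.3e-04). GSY1, a glycogen synthase, rose by 1.92 ± 0.95 (adjusted p = 0.0036, but 0.065 without replicate 3).

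Chaperones of the Hsp70 and Hsp90 families rose in 7 of 23 cases and fell in 5 (leave-one-out 9, 1 and 1 higher and 6, 4 and 4 lower, block 8 higher and 6 lower), shares of 30.4% and 21.7% near those of all genes. Those that fell include SSB2, the ribosome-bound Hsp70, at −1.80 ± 0.18 (adjusted p = 2.1e-04), whose near-identical copy SSB1 changed by −1.26 ± 1.56 without passing (adjusted p = 0.17, or adjusted p = 1.5e-06 with the block). The p with the block leaves out replicate variation that the strains share, so it does not measure that SD. Redox defence genes rose in 11 of 31 cases and fell in 7 (leave-one-out 16, 7 and 4 higher and 9, 2 and 2 lower, block 15 higher and 9 lower). YAP1, the transcription factor of oxidative stress, rose by 1.47 ± 0.18 (adjusted p = 4.3e-05), and HYR1, the peroxidase that activates Yap1, fell by 1.21 ± 0.29 (adjusted p = 1.2e-04).

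Genes of glycerol metabolism and transport, the process the HOG pathway is named for, rose in 3 of 11 cases and fell in 1 (leave-one-out 6, 1 and 1 higher and 3, 0 and 0 lower, block 5 higher and 1 lower). These shares of 27.3% and 9.09% stand beside 25.6% and 27.4% over all genes. The 11 leave out GPD1, GPP1, GPP2, GUT1 and DAK2, which lacked values, and GPD1 and GPP2 are given below. STL1 (YDR536W), the glycerol importer of the plasma membrane, stood at −3.63, −3.46 and −3.63 at 60 min, against −2.38, −3.53 and −3.47 at 0 min in hog1del. Replicate 1 moved most, downward, and the times overlapped (−0.45 ± 0.70, adjusted p = 0.17). In HOG1-GFP the STL1 changes were 5.38, 4.41 and 4.75, and the difference of −5.30 ± 1.19 passed (adjusted p = 6.7e-04). DAK1, a dihydroxyacetone kinase, changed by 0.26 ± 0.37 in hog1del (adjusted p = 0.4) and 2.67 ± 0.55 in HOG1-GFP. GCY1, a glycerol dehydrogenase, rose by 2.54 ± 0.51 in hog1del (adjusted p = 6.4e-05), against 2.54 ± 0.29 in HOG1-GFP, and GUT2, of glycerol use in mitochondria, by 1.26 ± 0.43 (adjusted p = 0.0036, but 0.056 without replicate 2 and 0.054 without replicate 3).

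GPD1 (YDL022W), the glycerol-3-phosphate dehydrogenase of glycerol synthesis, had too few values for any fit and changed by 3.74 and 3.00 in replicates 2 and 3 of hog1del, against 4.02 and 4.78 in HOG1-GFP. GPP2, HSP12 and PRM1 lacked values in replicate 1 and were measured in replicates 2 and 3 only. GPP2 (YER062C), a glycerol-3-phosphatase, changed by 4.37 and 4.02 in hog1del, and passed in the fit of 5999 genes with at least 2 fold changes per strain (adjusted p = 2.1e-05). HSP12, a membrane-stabilising stress protein, changed by 4.17 and 4.14 (adjusted p = 5.1e-05), and PRM1, of membrane fusion in mating, by 3.17 and 3.28 (adjusted p = 5.4e-05). All 3 genes rose in both replicates they were measured in. PRM1 was not in the rule for named genes and was picked after its values were seen.

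HXT1 (YHR094C), the low-affinity glucose transporter, stood at −1.21, −2.78 and −3.38 at 60 min, against −2.13, −2.77 and −3.11 at 0 min in hog1del. The times overlapped, and the change of 0.21 ± 0.63 did not pass (adjusted p = 0.46), against 3.73 ± 0.25 in HOG1-GFP and 0.19 ± 0.36 in HOG1-CCAAX. HXT4, a high-affinity transporter, changed by 0.74, 1.06 and 1.32 in hog1del, against −0.40, −1.58 and −1.43 in HOG1-GFP, a difference of 2.17 ± 0.90 (adjusted p = 0.015). Its rise in hog1del passed (adjusted p = 0.0076, but 0.053 without replicate 2 and 0.12 without replicate 3). MTH1, a corepressor of hexose transporter genes, rose by 1.26 ± 0.20 (adjusted p = 3.9e-04) and differed from HOG1-GFP by 1.61 ± 0.58 (adjusted p = 0.012). Responses higher than in HOG1-GFP passed for HXT4, MTH1 and HXT2 in the hexose list and a lower one for HXT1, counts of 3 and 1 that were 7 and 2 with the block.

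**Figure D3:**
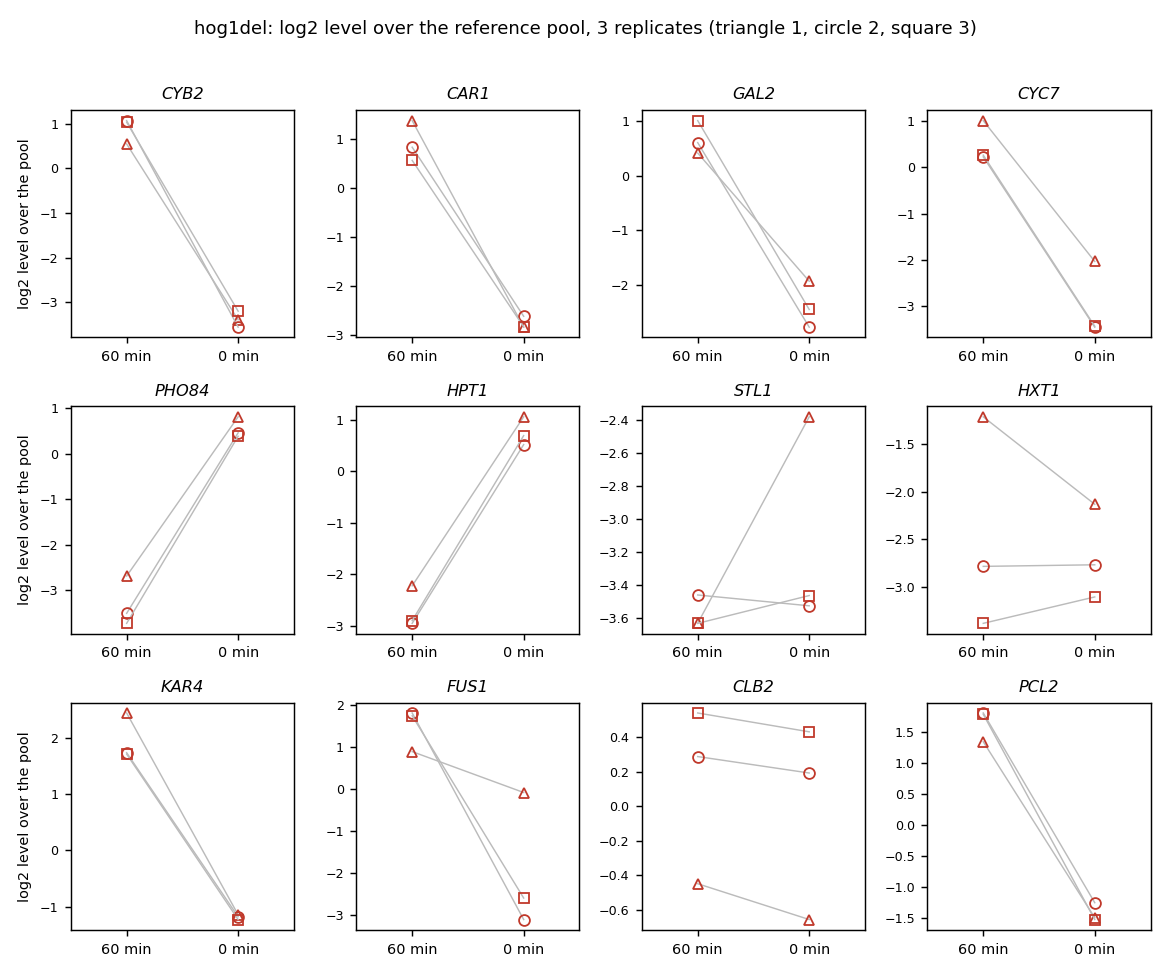
Log2 level over the reference pool in hog1del at 60 min (left) and 0 min (right) for 12 genes, with lines joining the values of a biological replicate and a separate axis range per gene. CYB2, CAR1, GAL2, CYC7, KAR4 and PCL2 are higher at 60 min in every replicate and PHO84 and HPT1 lower, while the times overlap in STL1, HXT1 and CLB2.

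Genes of mating rose in hog1del, both those of signalling and those of cell fusion. In the signalling list, 11 of 15 rose and none fell (leave-one-out 12, 7 and 5 higher and 1, 0 and 0 lower, block 11 higher and 1 lower). In HOG1-CCAAX 10 of the 15 rose and 2 fell, and in HOG1-GFP 5 rose and 2 fell. The median of the list was 0.76 in hog1del, 0.19 in HOG1-GFP and 0.49 in HOG1-CCAAX. In the list of mating and cell fusion 13 of 17 rose and 1 fell (leave-one-out 14, 9 and 9 higher and 2, 1 and 0 lower, block 14 higher and 2 lower), with medians of 1.38, 0.56 and 0.74 in the same strains. In HOG1-CCAAX 9 of the 17 rose and 1 fell, and in HOG1-GFP 7 rose and 0 fell. Against HOG1-CCAAX, a higher response in hog1del passed for 2 signalling genes and 0 fusion genes. GPA1, the G protein subunit that holds the pathway off, rose by 1.80 ± 0.73 (adjusted p = 8.4e-04). STE12 (YHR084W), the transcription factor of the pathway, stood at 1.24, 1.08 and 1.37 at 60 min, against −0.74, −0.65 and −0.60 at 0 min. Its values did not overlap, and it rose by 1.89 ± 0.14 (adjusted p = 7.6e-06), against 0.017 ± 0.11 in HOG1-GFP and 0.33 ± 0.071 in HOG1-CCAAX.

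KAR4 (YCL055W), a transcription factor of nuclear fusion, stood at 2.44, 1.74 and 1.71 at 60 min, against −1.15, −1.18 and −1.23 at 0 min, and rose 8.87-fold (3.15 ± 0.38, adjusted p = 7.7e-06). FUS1 (YCL027W), of cell fusion, stood at 0.89, 1.81 and 1.74 at 60 min, against −0.085, −3.11 and −2.60 at 0 min. Its levels at 60 min lay within 1 log2 unit, whereas at 0 min replicate 1 lay far above the others, so that the change was 0.97 in replicate 1, 4.92 in replicate 2 and 4.34 in replicate 3. FUS1 passed (adjusted p = 0.0027), but had an adjusted p of 0.064 without replicate 2 and 0.059 without replicate 3. Neither the FUS1 difference to HOG1-GFP nor that to HOG1-CCAAX passed. PRM7 was the 1 member that fell, at −2.06 ± 1.06 (adjusted p = 0.0015, but 0.0504 without replicate 3).

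Among signalling genes a higher response in hog1del than in HOG1-GFP passed for KAR4, STE12, STE4 and FUS3, 4 genes that were 7 with the block. STE4, the G protein beta subunit, changed by 0.18 ± 0.34 in hog1del and −1.08 ± 0.17 in HOG1-GFP, so that its difference of 1.25 ± 0.19 (adjusted p = 0.014) came with no change of its own in hog1del that passed (adjusted p = 0.32). FUS3, the MAP kinase of mating, rose by 0.89 ± 0.13 in hog1del (adjusted p = 3.4e-04) and differed by 0.95 ± 0.052 (adjusted p = 0.022). Among fusion genes it passed as higher for AGA1, PRM3, PRM4 and CIK1, and with the block 10 were higher and 3 lower. AGA1, the anchor of a-agglutinin, rose by 2.06 ± 0.57 (adjusted p = 2.4e-04), against 0.19 ± 0.26 in HOG1-GFP, a difference of 1.88 ± 0.38 (adjusted p = 0.034). PRM10, a membrane protein, went the other way, with 0.72, 0.43 and 0.46 in hog1del, against 4.69, 2.77 and 3.05 in HOG1-GFP (adjusted p = 0.0079 for the difference of −2.97 ± 0.88).

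Of 6 genes specific to a cells 3 rose and none fell (leave-one-out 4, 3 and 3 higher and 1, 0 and 0 lower, block 4 higher and 1 lower), and 2 had a higher response than in HOG1-GFP, or 5 with the block. AGA2 (YGL032C), the binding subunit of a-agglutinin, changed by 0.83, 1.46 and 1.56 in hog1del, against −1.57, −1.02 and −1.07 in HOG1-GFP and −0.96, −0.87 and −0.46 in HOG1-CCAAX. All hog1del values lay above 0 and all values of the other strains below it (adjusted p = 3.8e-04 for hog1del). BAR1, the protease that degrades alpha factor, rose by 2.65 ± 0.63 (adjusted p = 3.2e-05), and ASG7, a regulator of the G protein, by 2.61 ± 0.80 (adjusted p = 8.2e-05). The 4 genes specific to alpha cells also rose, by 2.04 ± 1.67 for MF(ALPHA)1, 1.07 ± 0.53 for STE3, 0.41 ± 0.15 for MF(ALPHA)2 and 0.32 ± 0.06 for SAG1. None of these 4 calls held without replicate 2 or without replicate 3 (adjusted p of 0.099 to 0.32). Whether both cell types were present was not tested, and in cultures like these a larger share of cells of a kind and more RNA per cell cannot be told apart.

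Genes of filamentous growth moved both ways, with 5 of 16 higher and 4 lower (leave-one-out 8, 4 and 2 higher and 6, 1 and 1 lower, block 7 higher and 6 lower). TEC1 (YBR083W), the partner of Ste12 in filamentation, stood at 1.68, 1.00 and 1.04 at 60 min, against −1.32, −1.85 and −1.64 at 0 min, without overlap. It rose 7.17-fold (2.84 ± 0.16, adjusted p = 3.4e-06), against 0.21 ± 0.11 in HOG1-GFP and 1.76 ± 0.34 in HOG1-CCAAX. Its classical target FLO11, the adhesin of filaments, fell by 0.67 ± 0.39 (adjusted p = 0.01, but 0.18 without replicate 2 and 0.11 without replicate 3), and NFG1, a negative regulator of filamentation, rose by 1.09 ± 0.19 in hog1del (adjusted p = 0.0028, but 0.063 without replicate 3), against 3.00 ± 0.69 in HOG1-GFP.

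CLB2 and other genes of mitosis had a higher response in hog1del than in HOG1-GFP. Of 26 genes of G2 and M phase, 6 rose and 5 fell in hog1del (leave-one-out 9, 4 and 4 higher and 9, 1 and 1 lower, block 7 higher and 6 lower), whereas 1 rose and 14 fell in HOG1-GFP (median 0.09 in hog1del and −0.53 in HOG1-GFP). CLB2 (YPR119W), the main mitotic cyclin, stood at −0.45, 0.29 and 0.54 at 60 min, against −0.66, 0.19 and 0.43 at 0 min in hog1del. The times overlapped, and within replicates CLB2 changed by 0.21, 0.095 and 0.11, against −1.88, −2.08 and −2.12 in HOG1-GFP and −0.29, −0.98 and −1.23 in HOG1-CCAAX. Its difference to HOG1-GFP was 2.16 ± 0.068 (SD of the differences within replicates, adjusted p = 0.0022 for the unpaired contrast of strain means). The response was higher in hog1del than in HOG1-GFP in 7 of the 26 and lower in none, beside 1.64% higher and 0.937% lower over all genes. The other 6 were CLB1, CDC20, SPO12, HST3, HOF1 and MOB1. CLB1, the second mitotic cyclin of the pair, changed by −0.19 ± 0.20 in hog1del and −1.70 ± 0.46 in HOG1-GFP (adjusted p = 0.014 for the difference). MOB1, of mitotic exit, rose by 2.02 ± 0.086 in hog1del (adjusted p = 7.1e-06) and 1.25 ± 0.15 in HOG1-GFP. With the replicate block 15 responses were higher in hog1del and 0 lower, beside 7.28% and 7.5% over all genes. No gene tested passed as higher without replicate 2 or without replicate 3, with CLB2 at an adjusted p of 0.17 and 0.24.

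**Figure D4:**
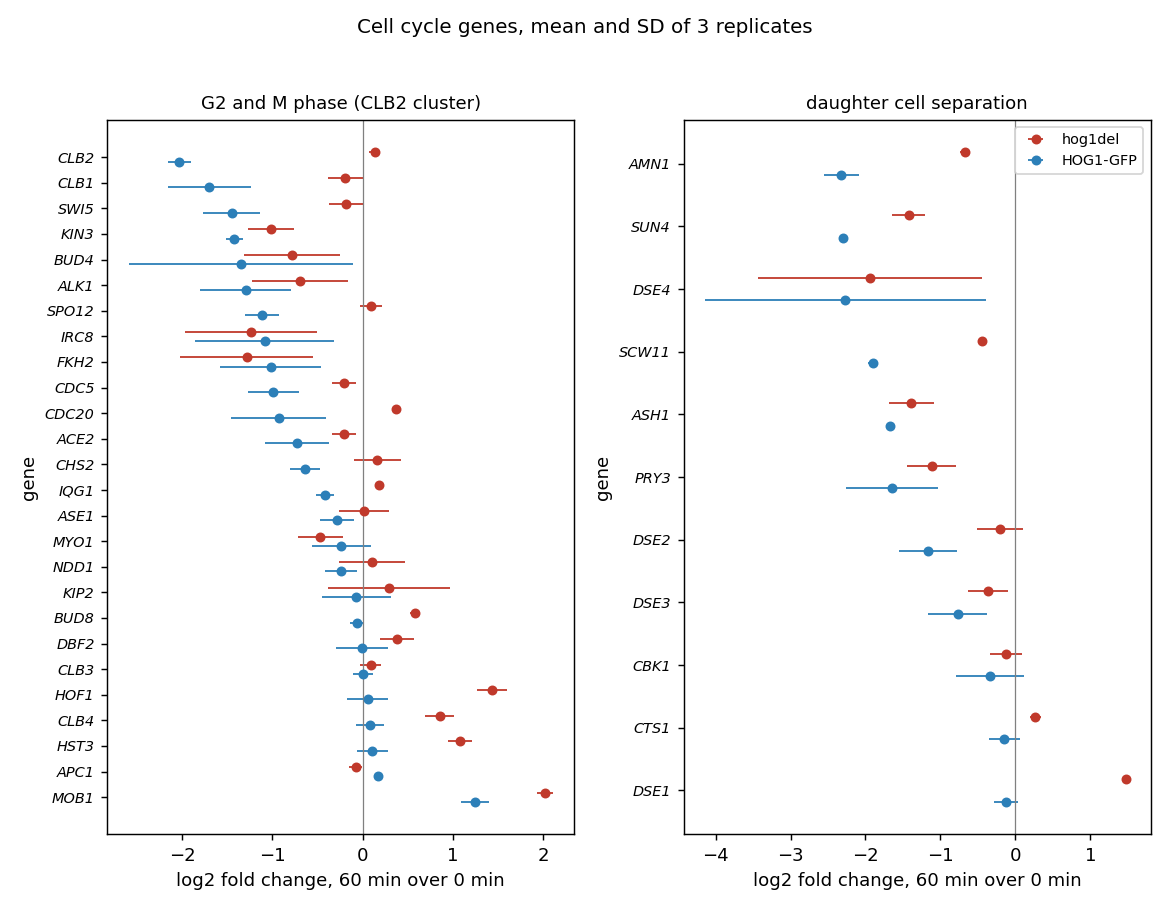
Log2 fold change of 60 min over 0 min as mean and SD of 3 replicates in hog1del and HOG1-GFP, for 26 genes of G2 and M phase and 11 of daughter cell separation. CLB2 lies at 0.14 in hog1del and −2.03 in HOG1-GFP, and DSE1 at 1.48 and −0.13.

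Daughter cell separation genes, which cut the septum after mitosis, fell in 5 of 11 cases in hog1del and rose in 1 (leave-one-out 1, 1 and 1 higher and 6, 3 and 2 lower, block 1 higher and 6 lower), with a median of −0.44, against 8 that fell and 0 that rose in HOG1-GFP (median −1.64). Responses of DSE1, AMN1, SCW11 and SUN4 were higher in hog1del, 4 genes that were 5 with the block. SCW11, a wall glucanase, changed by −0.47, −0.41 and −0.45 in hog1del, against −1.96, −1.83 and −1.91 in HOG1-GFP, a difference of 1.46 ± 0.037 (adjusted p = 0.002). DSE1, a daughter-specific gene, rose by 1.48 ± 0.039 in hog1del (adjusted p = 3.2e-05), while it changed by −0.13 ± 0.16 in HOG1-GFP (adjusted p = 0.43).

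Around the start of the cycle, PCL2 (YDL127W), a cyclin of the kinase Pho85, stood at 1.34, 1.80 and 1.78 at 60 min, against −1.50, −1.26 and −1.53 at 0 min. It rose 8.39-fold (3.07 ± 0.24, adjusted p = 1.4e-06) without overlap and differed from HOG1-GFP by 1.75 ± 0.15 (adjusted p = 0.0014). PCL1 rose by 2.54 ± 0.20 (adjusted p = 1.0e-05), whereas the G1 cyclin CLN2 changed by 0.002 ± 0.18 (adjusted p = 0.99). In all, 2 of 13 genes of G1 and Start rose, and 3 fell (leave-one-out 3, 2 and 2 higher and 6, 1 and 1 lower, block 3 higher and 6 lower). Of 29 genes of DNA replication and nucleotide reduction 9 rose and 11 fell (leave-one-out 9, 4 and 3 higher and 15, 3 and 3 lower, block 9 higher and 14 lower), with CDC6, which loads the replicative helicase, at 1.17 ± 0.33 in hog1del (adjusted p = 1.6e-04) and −0.37 ± 0.14 in HOG1-GFP (adjusted p = 0.0051 for the difference). Of 8 histone genes 6 fell and none rose (leave-one-out 1, 0 and 0 higher and 7, 4 and 4 lower, block 0 higher and 7 lower), with a median of −0.77 in hog1del and −0.29 in HOG1-GFP, among them HTA2, of histone H2A, at −1.78 ± 0.35 (adjusted p = 5.0e-04). No histone difference to HOG1-GFP passed, whereas with the block 1 response was higher in hog1del and 3 lower.

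Ribosomal protein genes and those of ribosome assembly were lower in hog1del at 60 min. Of 106 ribosomal protein genes 95 fell and none rose (leave-one-out 102, 73 and 63 lower, block 0 higher and 104 lower), with a median of −1.47, against 94 that fell in HOG1-GFP. Of the 121 genes for ribosome biogenesis 94 fell with no member rising (leave-one-out 1, 0 and 0 higher and 108, 43 and 37 lower, block 3 higher and 112 lower), with a median of −1.16, against 99 that fell in HOG1-GFP. RPL20A (YMR242C), a protein of the large subunit, stood at −1.25, −2.66 and −2.89 at 60 min, against 1.77, −0.35 and −0.33 at 0 min, and fell by 2.63 ± 0.36 (adjusted p = 7.7e-06). SYO1, which escorts ribosomal proteins into the nucleus, fell by 3.13 ± 0.90 (adjusted p = 1.5e-04), and UTP10, of the small subunit processome, changed by −2.45 ± 0.70 (adjusted p = 6.9e-04). Also among the 15 lowest were MRD1 at −2.69 ± 1.16 (adjusted p = 0.0044, but 0.064 without replicate 2 and 0.074 without replicate 3), UTP4 at −2.53 ± 0.61 and NSR1 at −2.36 ± 0.19 for biogenesis, and RPS22A at −2.49 ± 0.20, RPL37A at −2.48 ± 0.25, RPS11A at −2.45 ± 0.21 and RPL12A at −2.41 ± 0.30 for ribosomal proteins, besides YAE1 at −2.34 ± 0.18. Many ribosomal protein genes exist as near-identical pairs, whose probes may share signal.

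NOP56 (YLR197W) and NOP58 (YOR310C), core proteins of the box C/D snoRNPs that guide rRNA methylation, had a higher response in hog1del than in both other strains. NOP56 changed by −0.034, 0.44 and −0.27 in hog1del, against −1.64, −1.10 and −1.30 in HOG1-GFP and −1.43, −1.63 and −1.64 in HOG1-CCAAX. The hog1del values lay above all others (adjusted p = 0.014 for the difference to HOG1-GFP and adjusted p = 0.04 for that to HOG1-CCAAX). NOP58 changed by −0.42 ± 0.25 in hog1del (adjusted p = 0.044, but 0.053 without replicate 1, 0.066 without replicate 2 and 0.36 without replicate 3), against −1.65 ± 0.081 in HOG1-GFP and −1.96 ± 0.36 in HOG1-CCAAX. No difference of either gene passed without replicate 2, without replicate 3, or with no replicate block and unpaired levels. After quantile normalization the differences to HOG1-CCAAX did not pass either (adjusted p = 0.075 for NOP56 and adjusted p = 0.067 for NOP58).

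Among 23 genes of the RNA polymerases I and III, 20 fell and 1 rose (leave-one-out 1, 0 and 0 higher and 21, 10 and 10 lower, block 1 higher and 21 lower), with a median of −1.11. Among 30 translation factors, 18 fell and none rose (leave-one-out 1, 0 and 0 higher and 22, 10 and 7 lower, block 0 higher and 24 lower), with a median of −0.61, among them NIP1, of initiation factor 3, at −1.83 ± 0.48 (adjusted p = 2.1e-04). Mitochondrial ribosomal proteins fell in 33 of 66 cases and rose in 7 (leave-one-out 14, 2 and 2 higher and 36, 13 and 17 lower, block 9 higher and 39 lower), with a median of −0.41. Of these IMG1 changed most, by −1.88 ± 0.34 (adjusted p = 6.2e-05), and RSM10 rose by 1.62 ± 0.13 (adjusted p = 1.1e-04).

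Purine synthesis and salvage fell in 14 of 22 genes and rose in 1 (leave-one-out 1, 1 and 0 higher and 16, 11 and 12 lower, block 1 higher and 15 lower), with a median of −1.16 in hog1del and −1.31 in HOG1-GFP. HPT1 (YDR399W), which salvages hypoxanthine and guanine, stood at −2.22, −2.95 and −2.90 at 60 min, against 1.06, 0.52 and 0.69 at 0 min, and fell 10.9-fold (−3.45 ± 0.16, adjusted p = 1.4e-06). AAH1, the adenine deaminase, fell by 1.91 ± 0.44 (adjusted p = 2.4e-04), and ADE17, of the last steps to IMP, changed by −2.09 ± 0.56 (adjusted p = 4.7e-04). Pyrimidine genes fell in 5 of 13 cases and rose in 2 (leave-one-out 3, 1 and 0 higher and 5, 3 and 3 lower, block 4 higher and 5 lower), with FUR1, the uracil salvage enzyme, at −2.32 ± 0.14 (adjusted p = 8.8e-06).

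The phosphate regulon fell in 13 of 22 genes and rose in 3 (leave-one-out 6, 2 and 1 higher and 16, 8 and 8 lower, block 6 higher and 15 lower), with a median of −0.74 in hog1del and −0.72 in HOG1-GFP. PHO84 (YML123C), the high-affinity phosphate transporter, stood at −2.68, −3.50 and −3.72 at 60 min, against 0.81, 0.46 and 0.38 at 0 min. All its 60 min values lay far below the 0 min values, a 14.5-fold fall (−3.86 ± 0.32, adjusted p = 1.4e-06, against −4.26 ± 0.15 in HOG1-GFP), the largest among the genes tested in hog1del. VTC3, of vacuolar polyphosphate synthesis, fell by 2.15 ± 0.45 (adjusted p = 3.2e-05), whereas PHM8, a phosphatase, rose by 1.76 ± 0.92 (adjusted p = 0.0023, but 0.061 without replicate 3). PHO11 and PHO12, near-identical acid phosphatases whose probes may share signal, lay at −1.61 ± 0.12 (PHO11) and −1.66 ± 0.075 (PHO12) in hog1del, against −2.86 ± 0.37 and −2.86 ± 0.39 in HOG1-GFP (adjusted p = 0.026 and adjusted p = 0.019 for the differences).

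Ergosterol genes rose in 12 of 24 cases and fell in 1 (leave-one-out 18, 8 and 8 higher and 2, 0 and 0 lower, block 16 higher and 2 lower). Their median was 0.45 in hog1del, 0.083 in HOG1-GFP and 0.095 in HOG1-CCAAX. ERG1 (YGR175C), the squalene epoxidase, changed by 1.91, 1.10 and 1.22 in hog1del, against −0.13, 0.34 and 0.27 in HOG1-GFP. These did not overlap and differed by 1.25 ± 0.69 (adjusted p = 0.04), and ERG6 and ERG11 also had a higher response in hog1del, 3 genes in all, or 9 with the block. ERG5, the C-22 sterol desaturase, rose by 2.33 ± 0.66 (adjusted p = 1.6e-04).

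At the cell surface the lists moved both ways. Of 27 cell wall proteins 6 rose and 11 fell (leave-one-out 6, 5 and 3 higher and 14, 6 and 5 lower, block 6 higher and 14 lower), and of 20 genes of wall integrity signalling and wall synthases 6 rose and 7 fell (leave-one-out 8, 2 and 3 higher and 8, 0 and 1 lower, block 8 higher and 8 lower). TIR1 (YER011W), a mannoprotein, changed by 1.56, 1.53 and 1.47 in hog1del, against −0.35, −1.06 and −0.94 in HOG1-GFP, in opposite directions in every replicate (adjusted p = 9.2e-04). PST1, a wall protein known as a marker of wall integrity signalling, fell by 1.47 ± 0.23 (adjusted p = 8.8e-04). The wall sensors WSC2 and MID2 rose by 1.02 ± 0.064 (adjusted p = 1.0e-04) and 1.29 ± 0.21 (adjusted p = 7.2e-05), and WSC4 by 0.95 ± 0.13 (adjusted p = 0.002, but 0.052 without replicate 2). All 3 differed from HOG1-GFP, by 0.91, 1.01 and 1.76. SLT2, the MAP kinase of wall integrity, fell by 0.63 ± 0.31 (adjusted p = 0.006, but 0.1 without replicate 2 and 0.15 without replicate 3), and BCK1, a kinase above it, fell by 0.82 ± 0.39 (adjusted p = 0.015, but 0.18 without replicate 2 and 0.13 without replicate 3).

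Eisosome genes and the SUR7 family, which shape furrows of the plasma membrane, rose in 8 of 14 cases and fell in 1 (leave-one-out 12, 6 and 6 higher and 2, 0 and 0 lower, block 11 higher and 1 lower). FHN1, a furrow protein, rose by 2.64 ± 0.16 (adjusted p = 2.1e-05). SUR7 itself rose by 1.04 ± 0.13 in hog1del (adjusted p = 8.3e-05) and changed by −0.32 ± 0.10 in HOG1-GFP (adjusted p = 0.04), a difference of 1.35 ± 0.22 (adjusted p = 0.0026), and its relative PUN1 differed the other way, at 1.13 ± 0.16 against 2.82 ± 0.38 (adjusted p = 0.023). Ion transport genes rose in 4 of 22 cases and fell in 6 (leave-one-out 8, 1 and 1 higher and 8, 2 and 2 lower, block 7 higher and 8 lower). ENA1, the sodium pump, rose by 1.27 ± 0.32 in hog1del (adjusted p = 1.5e-04), against 2.20 ± 0.24 in HOG1-GFP, and its near-identical copies may share its signal. The ENA1 difference between these strains did not pass. PMP1, a small subunit of the proton pump, fell by 1.53 ± 0.12 (adjusted p = 2.5e-05).

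Iron genes rose in 9 of 28 cases and fell in 8 (leave-one-out 9, 4 and 5 higher and 11, 4 and 4 lower, block 10 higher and 10 lower), with FRE1, a ferric reductase, at −1.49 ± 0.64 (adjusted p = 0.0011) and FRE4, another reductase, at 1.92 ± 0.14 (adjusted p = 1.0e-05). CTR1, the copper transporter, fell by 2.62 ± 0.62 (adjusted p = 2.7e-05). Thiamine genes rose in 10 of 23 cases and fell in 3 (leave-one-out 12, 2 and 3 higher and 5, 2 and 2 lower, block 12 higher and 5 lower), and THI4, of thiazole synthesis, changed by 1.10, 1.81 and 1.90 in hog1del, against 3.20, 4.67 and 4.85 in HOG1-GFP (adjusted p = 0.017 for the difference). Amino acid synthesis rose in 17 of 66 genes and fell in 20 (leave-one-out 23, 10 and 11 higher and 31, 10 and 11 lower, block 23 higher and 29 lower), shares of 25.8% and 30.3% beside 25.6% and 27.4% over all genes. MET16, of sulphate assimilation, rose by 1.62 ± 0.58 (adjusted p = 7.9e-04), and ARO2, of the shikimate pathway, fell by 1.95 ± 0.32 (adjusted p = 4.3e-05).

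Of 30 proteasome genes 9 rose and none fell (leave-one-out 21, 5 and 3 higher and 1, 0 and 0 lower, block 20 higher and 2 lower), with a median of 0.36 in hog1del and 0.64 in HOG1-GFP. RPN4, the transcription factor of proteasome genes, rose by 1.94 ± 0.24 (adjusted p = 2.1e-05). In the list of autophagy and vacuolar proteases 9 of 22 genes rose and 2 fell (leave-one-out 14, 4 and 4 higher and 2, 0 and 0 lower, block 14 higher and 3 lower), with the aminopeptidase APE1 at 1.92 ± 0.86 (adjusted p = 0.0012) and ATG8, the coat protein of autophagosomes, at 1.30 ± 1.21 (adjusted p = 0.04, but 0.29 without replicate 2 and 0.27 without replicate 3).

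Of 21 sensors and kinases of the HOG pathway 5 rose and 4 fell (leave-one-out 8, 5 and 2 higher and 4, 1 and 1 lower, block 7 higher and 6 lower), with a median of 0.02, and the shares of 23.8% and 19% lay below those of all genes. OPY2, a membrane anchor of the Sho1 branch, rose by 1.27 ± 0.36 (adjusted p = 2.9e-04) and SSK1, the response regulator of the Sln1 branch, by 0.79 ± 0.21 (adjusted p = 5.8e-04). PTC2, a phosphatase that acts on Hog1, fell by 1.44 ± 0.35 (adjusted p = 8.0e-05), and HKR1, a sensor of the Sho1 branch, changed by −0.89 ± 0.73 (adjusted p = 0.018, but 0.2 without replicate 2 and 0.22 without replicate 3). Of 11 effectors 5 rose and 1 fell (leave-one-out 7, 0 and 0 higher and 1, 1 and 0 lower, block 6 higher and 1 lower), so that none passed as higher without replicate 2 or without replicate 3. RCK1, a kinase related to those that Hog1 activates, rose by 1.84 ± 1.01 (adjusted p = 0.0067, but 0.092 without replicate 2 and 0.077 without replicate 3). MSN4 rose by 0.66 ± 0.23 in hog1del (adjusted p = 0.0033, but 0.066 without replicate 2 and 0.12 without replicate 3) and MSN2 by 0.58 ± 0.084 (adjusted p = 0.014, but 0.11 without replicate 2 and 0.16 without replicate 3).

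Compared with HOG1-GFP, hog1del had a higher response in 89 genes (1.64% of those tested) and lower in 51 (0.937%). With the replicate number as a block across strains these counts were 396 (7.28%) and 408 (7.5%), without replicate 1 they were 528 and 630, without replicate 2 they were 0 and 2, and without replicate 3 limma called none (193 higher and 138 lower at an unadjusted p under 0.05). STL1 had the largest negative difference, followed by YBR116C, TKL2, ALD3, HXT1, PRM10, NQM1 and GRE3. TEC1 had the largest positive difference, followed by AGA2, TIR1, NRG2, HXT4, CLB2, ATG41 and KAR4. NRG2 (YBR066C), a repressor of glucose-repressed genes, stood at 1.67, 2.20 and 1.97 at 60 min, against −0.93, −1.09 and −0.97 at 0 min in hog1del, and rose by 2.94 ± 0.35 (adjusted p = 1.3e-05), against 0.73 ± 0.57 in HOG1-GFP and 2.52 ± 0.24 in HOG1-CCAAX. ATG41, of autophagy, changed by 0.49, 1.11 and 1.04 in hog1del, against −0.64, −1.77 and −1.39 in HOG1-GFP. Its signs were opposite in every replicate (adjusted p = 0.0084).

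**Figure D5:**
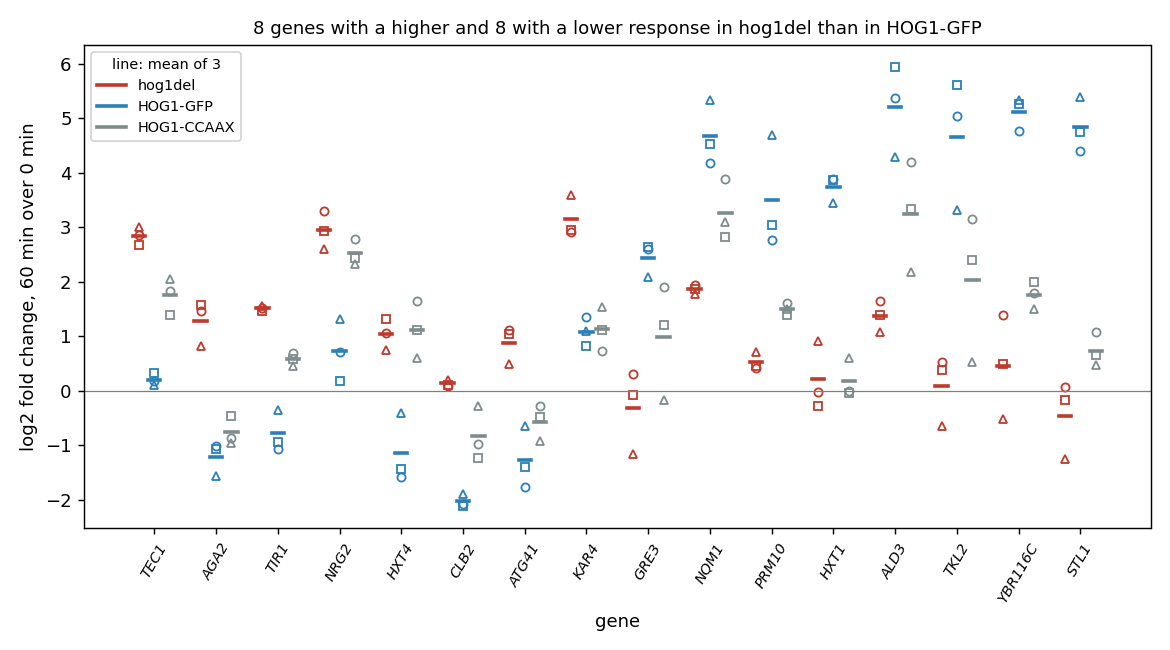
Log2 fold change of 60 min over 0 min in hog1del, HOG1-GFP and HOG1-CCAAX for the 16 genes with the largest differences of response between hog1del and HOG1-GFP, with 1 symbol per replicate (triangle 1, circle 2, square 3) and a line at the mean. TEC1 is highest in hog1del at 2.84, and STL1 lies at −0.45 in hog1del, against 4.85 in HOG1-GFP and 0.74 in HOG1-CCAAX.

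Against HOG1-CCAAX, whose Hog1 carries the membrane signal, 5 genes had a higher response in hog1del (0.0919%) and 2 a lower one (0.0367%), or 60 (1.1%) and 79 (1.45%) with the replicate block. Without replicate 1 the counts were 226 and 274, and without replicate 2 or replicate 3 limma called none (56 higher and 38 lower without replicate 2, and 59 higher and 45 lower without replicate 3, at an unadjusted p under 0.05). The 5 were AGA2, KAR4, NOP56, STE12 and NOP58, and the 2 were SPG4 and FMP48. KAR4 changed by 3.59, 2.92 and 2.94 in hog1del, against 1.54, 0.73 and 1.12 in HOG1-CCAAX, a difference of 2.02 ± 0.19 (adjusted p = 0.037). STE12 differed by 1.56 ± 0.20 (adjusted p = 0.015) and AGA2 by 2.05 ± 0.27 (adjusted p = 0.031). SPG4, a stationary-phase gene, changed by 1.53, 2.13 and 2.25 in hog1del, against 3.67, 4.94 and 4.57 in HOG1-CCAAX (adjusted p = 0.037). FMP48, a kinase found with mitochondria, changed by 1.99, 1.94 and 2.08 in hog1del, against 3.82, 4.26 and 3.50 (adjusted p = 0.031). STL1, with −1.25, 0.066 and −0.17 in hog1del, against 0.48, 1.07 and 0.66 in HOG1-CCAAX, did not pass in this comparison (adjusted p = 0.44).

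The authors' deposited table lists 30 genes that they chose on these arrays with SAM and a 3-fold rule, as induced in HOG1-GFP and less so in hog1del. In the authors' deposited table, with the sign turned, the hog1del means of these genes ran between −0.53 and 1.58 with a median of 0.75, against a median of 2.96 in HOG1-GFP and 1.47 in HOG1-CCAAX. The choice itself fixes the gap between hog1del and HOG1-GFP.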

How the data were processed

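Transcripts of 3 yeast strains were measured at 0 min and 60 min of sorbitol on 42 arrays with 2 colours, of which 14 are of hog1del. Per the labels' protocols, RNA was amplified with incorporation of amino-allyl UTP before dye coupling. The authors deposited a level table for each biological replicate, with technical arrays averaged per the series' design text, whose log2 values set the Cy5 reference pool over the Cy3 sample. The sources used here do not give background treatment, scaling or spot filters. The sign was turned, so that positive means more transcript in the sample. The fold changes deposited by the authors equal differences of these levels to within 4.99e-07, which bears out the 60 min column of hog1del, whose name holds a misplaced space. The lowest correlation between level columns, across genes, was −0.46 (hog1del at 0 min, replicate 3, with HOG1-CCAAX at 60 min, replicate 1), and the direction was kept because the labels state both dyes. The deposited series value table holds log2 ratios of single arrays with the opposite sign and was used as an alternative. Its array means correlate with the level tables at 0.997 or more.

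Of 8635 probes, 6278 have open reading frame names, of which 5804 were found in the RefSeq table of locus tags, used for symbols only. The 5443 genes with values in all 18 level columns were tested, 5186 of them with a locus tag. A linear model per gene (limma 3.58.1 with eBayes, R 4.3.3, two-sided tests) was fitted to 9 fold changes, 1 for each strain and replicate, with strain as the term, and a difference of response is a contrast of strain means. P values were adjusted after Benjamini and Hochberg over all 5443 genes, and an adjusted p under 0.05 passed. The test was also run on simulated data with known shifts and independent noise, which does not mirror deviations that the strains share. Values are mean ± SD of 3 replicates, and a fold is 2 raised to the mean log2 value. The SD of a difference of response is that of the 3 differences within replicates. Its p does not rest on that SD, since the main fit pools the spread within strains and does not pair strains by replicate. The replicates are biological per the labels, which do not say whether they were separate days or cultures.

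Times were paired by replicate number, as in the deposited fold changes. Deviations from the group mean of hog1del at 60 min and 0 min of equal number correlated at 0.44, 0.37 and 0.31 across genes, so the numbers were taken to pair them. Pairs of unequal number among replicates 2 and 3 correlated at 0.43 and 0.30, so the check separates replicate 1 and does not tell replicates 2 and 3 apart. Across strains, deviations of fold changes of equal number correlated at 0.44 to 0.82. Those of unequal number among replicates 2 and 3 correlated at 0.46 to 0.61, so here too only replicate 1 is separated. Counts with the replicate block are printed beside the list counts of the hog1del response and beside the differences where they matter most. For a difference, the block pairs the strains by replicate number. For the hog1del response, it takes shared replicate variation out of the error, so its p understates the spread of that mean.

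The 42 gene lists, the members and the named genes were chosen with earlier results of these data known. Named are HOG1, the 15 genes that rose and the 15 that fell most in hog1del (passing, at least 2-fold, same sign in all 3 replicates), up to 8 per direction for each difference, up to 4 per list with the largest change, and 11 genes of the pathway's literature. The text describes a part of these, and 1 further result is not reported here. Other genes named in the text, among them ADH3, ATG8, BCK1, CAR2, CLB1, CLN2, DAK1, FLO11, FRE1, FUS3, GAD1, GAL7, HAP4, HXK2, HYR1, PHO11, PHO12, PRM1, QCR6, SCW11, SLT2 and STE4, were chosen after their values were seen. Alternatives left out each replicate, added or removed the replicate block, changed scaling, the filter on missing values, the technical averaging and the strains fitted. Sequences of genes or probes were not used here. Genes with missing values, such as GPP2 and HSP12, entered only a wider fit of 5999 genes.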

Additional observations from a re-analysis of the deposited data

Results flagged for a closer look

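The results here are named genes whose response differed between hog1del and another strain by a test of the difference itself, as log2 differences of hog1del minus the other strain. No group has more than 3 samples, so single samples that stand apart were not tested for.

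Minus HOG1-GFP, genes of sugar metabolism, stress and other roles with a lower response in hog1del differed by −5.30 (STL1), −4.66 (YBR116C), −4.57 (TKL2), −3.83 (ALD3), −2.82 (NQM1), −2.75 (GRE3), −1.92 (MPC3), −1.69 (SPG4), −2.27 (FMP48), −2.64 (THI4), −1.92 (NFG1) and −1.69 (PUN1). The transporter and sensing genes differed by −3.52 (HXT1), 2.17 (HXT4) and 1.61 (MTH1).

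Mating and filamentation genes differed from HOG1-GFP by 2.63 (TEC1), 2.50 (AGA2), 2.06 (KAR4), 1.88 (STE12), 1.93 (BAR1), 1.88 (AGA1) and 1.51 (PRM3), all with a higher response in hog1del, and by −2.97 for PRM10. Cell cycle and daughter genes differed by 2.16 (CLB2), 1.75 (PCL2), 0.77 (MOB1), 1.38 (HOF1), 1.61 (DSE1), 0.88 (SUN4), 1.54 (CDC6) and 0.91 (RNR4).

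Surface, sterol and other genes with a higher response in hog1del than in HOG1-GFP differed by 2.30 (TIR1), 0.91 (WSC2), 1.76 (WSC4), 1.01 (MID2), 1.35 (SUR7), 1.25 (ERG1), 0.81 (ERG6), 1.30 (CIT2), 2.21 (NRG2), 2.15 (ATG41), 1.39 (NOP56) and 1.23 (NOP58).

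Minus HOG1-CCAAX, the differences that passed were 2.05 (AGA2), 2.02 (KAR4), 1.61 (NOP56), 1.56 (STE12), 1.54 (NOP58), −2.42 (SPG4) and −1.86 (FMP48).

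The probes that are not named for an open reading frame, which no comparison used, also moved in hog1del. Of 1504 such probes with values in replicates 2 and 3, 199 were at least 2-fold higher at 60 min in both replicates (13.2%) and 250 at least 2-fold lower (16.6%), beside 12.3% and 12.6% of 5979 open reading frames counted the same way.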

How the results depend on the processing

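Over all alternatives the count of genes higher in hog1del ran from 611 (without replicate 3) to 1961 (without replicate 1), and that of genes lower from 583 to 2022 in the same fits. Without replicate 2 they were 715 and 620, and no other alternative moved either count by over 1.5 times. Leaving out a replicate leaves 2 fold changes per strain. The counts of higher responses than HOG1-GFP ran from 0 to 528 and of lower ones from 0 to 630 with a replicate left out. They were 396 and 408 with the replicate block, and 54 higher with no replicate block and unpaired levels. Against HOG1-CCAAX they ran from 0 to 226 and from 0 to 274 with a replicate left out. They were 60 and 79 with the replicate block, 2 and 1 with no replicate block and unpaired levels, and 2 and 9 after quantile normalization. The replicate block thus changed these difference counts, and in the hog1del response it made 11 of the named genes pass that had not passed and lost no call. The cause of these moves was not tested. Each fit without a replicate had 3 residual degrees of freedom, against 6 in the main fit, and the counts of these fits moved both ways.

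No named gene changed the sign of a called value under any alternative. Of 194 named responses of hog1del, 132 kept their side of the threshold in every alternative. STL1 and HOG1 passed as lower after quantile normalization. Each of the 50 named differences lost its call in at least 1 alternative, all 50 without replicate 3 and 48 without replicate 2. In the 10 lists in which no member passed in a direction, 0 members did so at an unadjusted p under 0.05 as well. Signal over background was not used here, so what it limits is not given.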

Other observations

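Of the probes outside the tests, 70 carry the name SNR and a number, the form used for small nucleolar RNAs, which guide the modification and cutting of ribosomal RNA, and for a few spliceosomal RNAs. In hog1del 36 of them (51.4%) lay at least 2-fold lower at 60 min than at 0 min in both replicates 2 and 3, and none lay 2-fold higher, beside 16.6% lower and 13.2% higher among all probes not named for an open reading frame. Their median change in hog1del was −1.21 on the log2 scale. The lowest was SNR50, with −2.73 and −2.62 in hog1del, against −1.54 and −1.74 in HOG1-GFP and −2.36 and −1.76 in HOG1-CCAAX. SNR79 followed, with −2.20 and −2.41 in hog1del, against −1.74 and −1.89 in HOG1-GFP and −2.50 and −2.23 in HOG1-CCAAX. Both probes thus fell in all 3 strains. These probes have no value in replicate 1 and were not tested.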
